A study of Mus musculus with 2 samples.

Results

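The let-7 family in the fetal mouse testis was described from the small RNAs of 2 libraries. The WT library came from wild-type C57BL/6 fetuses and the Hsp90α KO library from fetuses of the same strain lacking HSP90α, a cytosolic chaperone encoded by Hsp90aa1. Each library was made from 20 whole testes pooled at embryonic day 16.5, so that there was 1 library per genotype, no replicate, and no check of variation between animals. The members were 10 of the 2201 annotated miRNA genes, namely Mirlet7a-1, Mirlet7b, Mirlet7c-1, Mirlet7c-2, Mirlet7d, Mirlet7e, Mirlet7f-1, Mirlet7f-2, Mirlet7g and Mirlet7i. A read was counted for them when it had at least 16 nt and lay exactly, on the sense strand, inside the hairpin of a member. This gave 25668 reads of 117 distinct sequences in WT and 23048 reads of 112 distinct sequences in KO. Levels are given as RPM, the reads per 1000000 hairpin reads, where hairpin reads are those that lay in any of the 2202 annotated miRNA hairpin transcripts.

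The let-7 RNAs are among the most conserved animal miRNAs. Each is cut from a hairpin first by Drosha and then by Dicer, and the strand from the 5′ side of the hairpin (5p) is the one that Argonaute proteins usually keep, whereas the strand from the 3′ side (3p) is usually lost. In stem cells and early germ cells, LIN28 proteins bind the let-7 precursors and block their maturation, and mature let-7 RNAs in turn repress Lin28 and other genes of growth and pluripotency. Terminal uridylyl transferases can add a single uridine to the 3′ end of many let-7 precursors, which gives Dicer a better substrate, or a long uridine tail when LIN28 is bound. HSP90 is a chaperone that takes part in the loading of small RNA duplexes onto Argonaute.

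The family is defined by the seed, bases 2 to 8 from the 5′ end, which pairs with the target. The mature 5p RNAs are shown because the counts below rest on telling them apart, with the seed in capitals (RefSeq, GRCm38.p6).
let-7a-5p: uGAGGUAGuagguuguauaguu
let-7b-5p: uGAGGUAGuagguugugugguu
let-7c-5p: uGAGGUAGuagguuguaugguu
let-7d-5p: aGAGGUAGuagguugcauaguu
let-7e-5p: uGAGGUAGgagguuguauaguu
let-7f-5p: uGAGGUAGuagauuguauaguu
let-7g-5p: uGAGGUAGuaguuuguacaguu
let-7i-5p: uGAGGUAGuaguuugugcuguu
All 8 RNAs had 22 nt and the seed GAGGUAG, and let-7d alone began with A. Counted from the 5′ end, let-7a differed from let-7c by A19G, from let-7e by T9G and from let-7f by G12A. A substitution of let-7c, A17G, gives let-7b.

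A miscalled base could therefore turn one member into another. As a measure of this, the 22-nt let-7c sequence was compared with its single-base variants that no annotated member has. The most frequent of these 58 variants had 12 reads in each library, which is 0.262% of let-7c in WT and 0.296% in KO. The let-7b sequence stood at 6.10% and 6.20% of let-7c, above that level in both libraries.

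The 10 hairpins lay at 7 places of the genome (GRCm38). On chromosome 13, on the minus strand, Mirlet7a-1 (48538179 to 48538272), Mirlet7f-1 (48537829 to 48537917) and Mirlet7d (48536012 to 48536114) lay in exons of the lincRNA 6720427I07Rik, with 261 bases between Mirlet7a-1 and Mirlet7f-1. On chromosome 15, on the plus strand, Mirlet7c-2 (85706603 to 85706697) and Mirlet7b (85707319 to 85707403) lay in exons of the noncoding transcript Lncppara, 621 bases apart. Mirlet7c-1 (chromosome 16, 77599657 to 77599750, plus) lay in an intron of the noncoding gene Mir99ahg. Introns of protein-coding genes held Mirlet7e (chromosome 17, 17830352 to 17830444, plus, in Spaca6), Mirlet7f-2 (chromosome X, 151912346 to 151912428, plus, in Huwe1) and Mirlet7g (chromosome 9, 106178840 to 106178927, plus, in Wdr82). Mirlet7i (chromosome 10, 122985640 to 122985724, minus) overlapped an exon of D630033A02Rik, a transcribed pseudogene.

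Sequencing gave 6409305 WT reads and 5589326 KO reads, of which 2523084 (39.4%) and 2561491 (45.8%) lay in hairpins. A total of 3 reads corresponds to 1.19 RPM in WT and 1.17 RPM in KO, the smallest level considered detectable. All intervals are 95% and cover only counting error, with reads treated as independent. Reads of a PCR-amplified library without molecular identifiers are not independent molecules, so that the intervals can be too narrow. Among miRNAs fixed as markers of cell types, those of germ cells (the miR-290 and miR-302 clusters, of which 9 of 12 had at least 1 read in each library, the miR-302 members at most 2 reads and Mir290b 0 in both) summed to 803 RPM in WT and 1040 in KO, a KO/WT ratio of 1.30 (Clopper-Pearson interval 1.22 to 1.37). Blood markers (5 of 5 with reads) had a ratio of 0.863 (0.837 to 0.889) in sum, Mir202 of Sertoli cells 1.07 (1.03 to 1.11), the mesenchymal markers (5 of 5) 1.02 (1.01 to 1.03) in sum and Mir126a of the endothelium 1.003 (0.979 to 1.03). Mir486 held 7082 of the 8993 blood marker reads in WT. The single blood markers ran from 0.575 for Mir144 to 0.877 for Mir486, and the interval of Mir223 (0.585 to 1.08) included 1. The mesenchymal markers went opposite ways, with Mir143 at 0.811 (0.803 to 0.819) and Mir145a at 0.882 (0.799 to 0.974) against 1.32 for Mir199a-1 and for Mir199a-2. The part of these mixtures in the let-7 values below was not tested, and in whole testes fewer cells of a type and less RNA per cell cannot be told apart.

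The let-7 family made up 1.02% (Wilson interval 1.01 to 1.03) of hairpin reads in WT and 0.900% (0.888 to 0.911) in KO. This corresponds to 10173 RPM in WT and 8998 in KO, and the KO/WT ratio was 0.884 (0.869 to 0.900). The difference was larger than the counting error. It turned to 1.03 (1.01 to 1.05) when the let-7 reads were divided by all reads of the library, of which hairpin reads were a smaller share in WT.

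The abundance of the family was carried by 4 RNAs. In WT, let-7f was the most abundant with 2444 RPM (2383 to 2506), followed by let-7c with 2134 (2077 to 2191), let-7a with 1959 (1905 to 2015) and let-7i with 1509 (1462 to 1558). Lower levels were found for let-7e (821, 786 to 857) and let-7g (782, 748 to 818), and the lowest for let-7d (286, 265 to 307) and let-7b (166, 151 to 183). Each RNA was above the next in this order beyond counting error except let-7e, whose level was 1.05 times that of let-7g (0.986 to 1.12). In KO the order was the same. There let-7f stood at 2029 RPM, let-7c at 1838, let-7a at 1832, let-7i at 1358, let-7e at 793, let-7g at 707, let-7d at 253 and let-7b at 134. In KO it was let-7c and let-7a that did not differ beyond counting error, with a quotient of 1.003 (0.963 to 1.04), whereas let-7e was 1.12 times as high as let-7g (1.05 to 1.196).

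Mature let-7a, let-7c and let-7f are each encoded by hairpins at different places, and exact matching could not divide their reads among them. Of the let-7f reads, 5942 in WT and 5017 in KO fitted both Mirlet7f-1 and Mirlet7f-2. For let-7c, 5330 and 4656 reads fitted both Mirlet7c-1 and Mirlet7c-2. The let-7a reads that fitted both Mirlet7a-1 and Mirlet7a-2, a hairpin on chromosome 9 that is no member, numbered 4937 and 4686. Reads that fitted hairpins of different mature RNAs were kept apart as shared and were few, 181 in WT and 141 in KO, of which 122 and 86 were a 17-nt sequence common to let-7a and let-7c.

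All 8 mature RNAs had a lower level in KO than in WT per hairpin read, by different amounts. Scaled instead to all reads of the library, 6 of the 8 ratios lay above 1 (let-7a 1.09, let-7e 1.12) and 0 of 8 intervals lay below 1. The KO/WT ratio was 0.807 (0.698 to 0.933) for let-7b, 0.830 (0.800 to 0.861) for let-7f and 0.861 (0.828 to 0.896) for let-7c. It was 0.884 (0.794 to 0.984) for let-7d, 0.900 (0.859 to 0.942) for let-7i, 0.904 (0.847 to 0.964) for let-7g and 0.935 (0.898 to 0.973) for let-7a. The highest ratio, 0.966 (0.908 to 1.03) for let-7e, was the only one of the 8 whose interval included 1. Compared with the rest of the family, let-7f had a lower ratio (quotient 0.921, Wald interval 0.883 to 0.960), whereas let-7a (1.07, 1.02 to 1.12) and let-7e (1.101, 1.03 to 1.17) had higher ratios. For the other 5 RNAs the interval of the quotient included 1. The plot of levels and ratios shows the 8 RNAs in the order of their WT level.

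**Figure D1:**
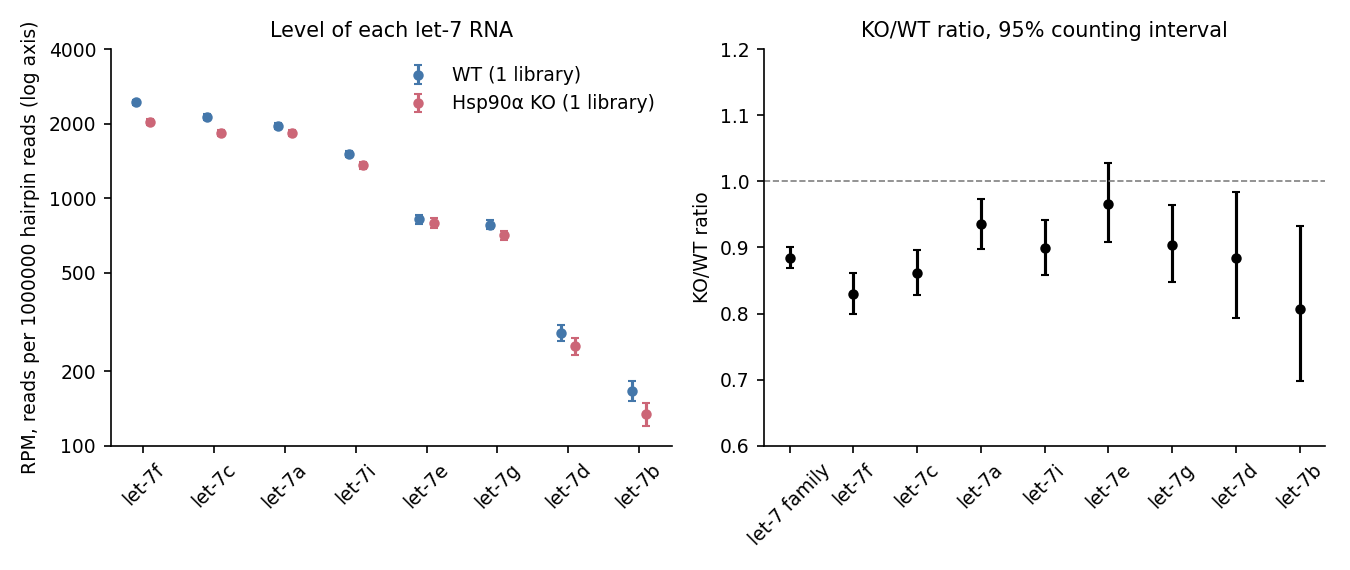
Left, level of each mature let-7 RNA in RPM (log axis) in the WT and the Hsp90α KO library, with 95% counting intervals, 1 library per genotype. Right, KO/WT ratio of the family and of each RNA with its 95% interval, where every ratio lies below the dashed line at 1 and only the interval of let-7e, 0.908 to 1.03, crosses it.

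The deficit in KO was smaller than the 1.5-fold change used to mark a difference, and 0 of the 10 member hairpins passed it. Among all 458 hairpins whose reads in WT and KO added up to at least 100, 40.0% passed 1.5-fold, all 183 of them lower in KO. Of these 183, 176 carried Gm symbols (predicted miRNAs without a family name) and 7 carried Mir symbols. Among the 266 hairpins with a Mir symbol, let-7 included, the share past 1.5-fold was 2.63%. All 10 member hairpins had a ratio below 1 and for 9 the interval lay entirely below 1, against 51.5% and 21.4% of hairpins with a Mir symbol, and against 71.2% and 52.4% of all 458. No member interval lay entirely above 1, against 16.2% of hairpins with a Mir symbol and 9.39% of all 458. The median log2 KO/WT ratio was -0.20 over the 10 members, -0.01 over the 266 hairpins with a Mir symbol and -0.21 over all 458. Of the 266, 54 (20.3%) had a ratio below that of the let-7 family. The members are not independent here, since hairpins of the same mature RNA share most of their reads. Nor are the other hairpins, since a read counted for every hairpin it fitted. Many Gm hairpins have identical values, such as Gm22029 and Gm22102, both with a mean of 107.1 RPM and a log2 ratio of -1.33. The shares and the median over all 458 therefore count some reads repeatedly.

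**Figure D2:**
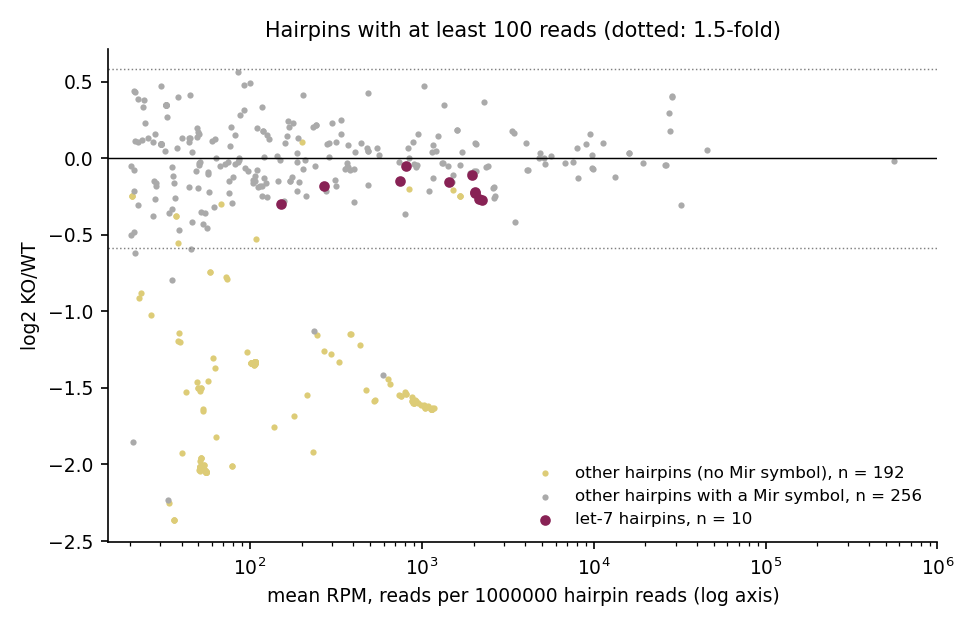
Log2 KO/WT ratio against the mean level in RPM (log axis) for hairpins with at least 100 reads, with the 10 let-7 hairpins, other hairpins with a Mir symbol and hairpins without one in different colours. The let-7 hairpins lie between -0.30 and -0.05, inside the dotted lines at 1.5-fold, and the points far below them are mostly hairpins without a Mir symbol.

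Other RNAs with the let-7 seed are encoded outside the 10 members. Mir98, which lies 785 bases from Mirlet7f-2 in the same intron of Huwe1, had 315 reads in WT and 282 in KO, 124.8 and 110.1 RPM. Its ratio was 0.882 (0.748 to 1.04), so that a difference was not detectable at this depth, and its quotient against let-7f was also without a detectable difference (let-7f over Mir98, 0.941, 0.798 to 1.11). Mirlet7a-2 had only 7 reads in WT and 10 in KO that fitted no other hairpin. Of the remaining hairpins named let-7 in RefSeq, Mirlet7j (Mir7j in GENCODE) had 0 reads in both libraries and Mirlet7k (Mir7k) only 2 and 1, which it shared with Mirlet7e.

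Several let-7 hairpins lie beside hairpins of the miR-99/100 and miR-125 families, which are transcribed with them and have unrelated seeds. Per hairpin read, the neighbours were higher in KO, whereas let-7a and let-7c were lower. For let-7e the ratio was 0.966, not different from 1 beyond counting error. Scaled to all reads of the library, the ratio was 1.12 for let-7e, 1.09 for let-7a and 1.003 for let-7c, so the opposite directions depend on the total used. Mirlet7e lies 94 bases from Mir99b and 367 bases from Mir125a. Mir99b stood at 24648 RPM in WT and 30245 in KO, which is 30.01 and 38.1 times the level of let-7e, and its KO/WT ratio was 1.23 (1.21 to 1.24). Mir125a had 8767 and 9340 RPM and a ratio of 1.07 (1.05 to 1.08). The ratio of let-7e was thus 0.787 times that of Mir99b (0.740 to 0.838) and 0.907 times that of Mir125a (0.851 to 0.967).

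At the other clusters the same order was seen. Mir99a, 656 bases from Mirlet7c-1, had 1958 and 2102 RPM, a ratio of 1.07 (1.03 to 1.12), and the ratio of let-7c was 0.802 times as high (0.759 to 0.847). The ratio of Mir100, 5211 bases from Mirlet7a-2, was 1.12 (1.05 to 1.18), and that of let-7a was 0.838 times as high (0.782 to 0.898). Reads that fitted Mir125b-1, Mir125b-2 or both had a ratio of 1.11 (1.08 to 1.15). Summed, the 6 neighbouring hairpins had 3.91 times the reads of the let-7 family in WT and 5.18 times in KO, and the let-7 ratio was 0.755 (Wald interval 0.740 to 0.770) times theirs. This quotient does not depend on the total used for normalization. It rests largely on Mir99b, with 62188 of the 100332 neighbour reads in WT, and its let-7 side includes members that lie beside none of these hairpins. The quotients of the single pairs were all closer to 1, the lowest being 0.774 (0.738 to 0.813) for let-7c against the Mir125b reads. For let-7a and let-7c the reads of the neighbouring hairpin could not be separated from those of the second hairpin elsewhere.

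The 5p strand made up nearly all let-7 reads. By exact matches, the 3p arm held 460 of 25668 reads in WT (1.79%, Wilson interval 1.64 to 1.96) and 358 of 23048 in KO (1.55%, 1.40 to 1.72). The loop held 4 reads in WT and 2 in KO, and no read lay antisense to a member. The exception was let-7d, in which the 3p strand had 332 reads in WT and 262 in KO, 46.0% and 40.5% of its reads. Its 3p strand was lower in KO, with a ratio of 0.777 (0.659 to 0.917), while the 5p strand had 389 and 385 reads and a ratio of 0.975 (0.845 to 1.13), so that the lower total of let-7d in KO came from 3p reads. The quotient of the 3p over the 5p ratio was 0.797 (Wald interval 0.643 to 0.988). In let-7e the 3p strand had 54 and 27 reads, a ratio of 0.493 (0.298 to 0.796) against 0.979 (0.920 to 1.04) for the 5p strand, with a quotient of 0.503 (0.316 to 0.802). In the other RNAs the 3p reads were 0 to 16 per library (31 and 32 for the 3p strand that Mirlet7a-1 and Mirlet7c-2 share), too few to compare.

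Exact matches missed a large part of the 3p strand. Many 3p reads matched the hairpin except for a final T (a uridine in the RNA) where the hairpin has another base. The most frequent forms are shown as sequenced, with the untemplated base in capitals, beside the templated 3p end of let-7d and of let-7c-1.
let-7b-3p with T: ctatacaacctactgccttccT
let-7a-1-3p or let-7c-2-3p with T: ctatacaatctactgtctttcT
let-7f-2-3p with T: ctatacagtctactgtctttcT
let-7f-1-3p with T: ctatacaatctattgccttccT
let-7e-3p with T: ctatacggcctcctagctttccT
let-7d-3p, templated: ctatacgacctgctgcctttct
let-7c-1-3p, templated: ctgtacaaccttctagctttcc
The first had 81 reads in WT and 94 in KO, the second 45 and 47, the third 33 and 23, the fourth 17 and 13 and the fifth 12 and 14. In the first 4 forms, the T stood at base 22 of the 3p RNA, where these hairpins have C. In let-7e it followed base 22. The let-7d form shown had 293 reads in WT and 225 in KO.

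Counting reads of at least 18 templated nt with up to 3 untemplated bases, the share of T-only ends differed widely among the 3p strands of the members. It was 77.3% of 110 reads in WT (68.6 to 84.1) and 85.0% of 120 in KO (77.5 to 90.3) for let-7b. For let-7f-2 it was 91.7% of 36 and 100% of 23, and for let-7f-1 81.8% of 22 and 76.5% of 17. The shared 3p strand of let-7a-1 and let-7c-2 had T-only ends in 58.2% of 79 reads and 58.8% of 85. These 4 strands were thus read mostly with an added T in both libraries. The share was lower for let-7e, 27.8% of 79 (19.2 to 38.6) and 43.1% of 51 (30.5 to 56.7), with overlapping intervals. For let-7c-1 it was 0 of 16 reads in WT and 0 of 14 in KO, which allows up to 19.4% and 21.5% (Wilson). This covers a T at base 22, where Mirlet7c-1 has C. Its base 23 is a templated T, so that a T added after base 22, as in let-7e, would not be seen. The same limit holds for let-7a-1, let-7b, let-7c-2 and let-7f-1. In let-7g only 8 and 6 reads were found, of which 5 and 5 ended in T. The 3p strands of let-7d and let-7i have a templated T at base 22, so that an added T at this base cannot be told from the hairpin sequence, and T-only ends were seen in 1 of 378 and 1 of 293 reads for let-7d and in 0 of 11 and 0 of 15 for let-7i.

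**Figure D3:**
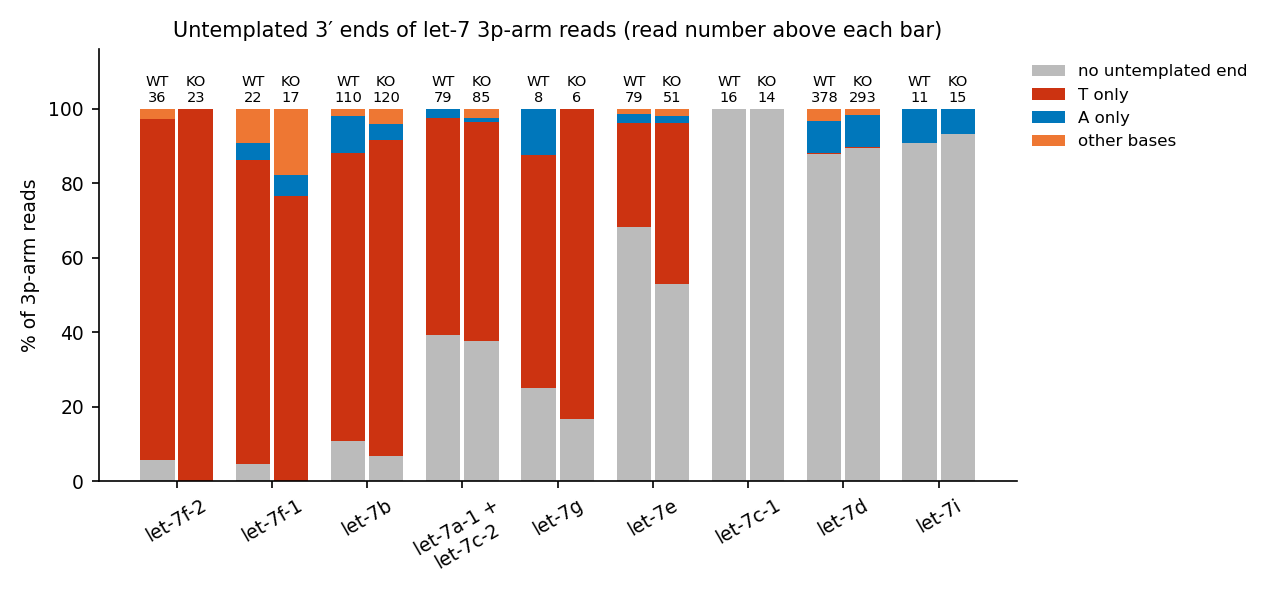
Percent of the 3p-arm reads of each let-7 hairpin without an untemplated end, with T only, with A only and with other bases, in the WT and the Hsp90α KO library, with the number of reads above each bar. T-only ends make up 58.2% to 100% of reads in the 4 strands at the left. None were found in let-7c-1, where a T added after base 22 would match the hairpin.

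Over all members, T-only ends were carried by 28.4% (25.3 to 31.8) of 739 3p reads in WT and 34.6% (31.0 to 38.4) of 624 in KO. Without let-7d, whose 3p reads were fewer in KO, they were 57.9% of 361 reads and 64.95% of 331. On the 5p arm the share was 1.73% (1.58 to 1.89) in WT and 1.87% (1.71 to 2.05) in KO. Among other hairpins with a Mir symbol, reads from the 3′ side had T-only ends in 13.0% in WT and 12.2% in KO, and reads from the 5′ side in 2.62% and 2.76%. These are shares of pooled reads, in which abundant hairpins weigh most (Mir10b alone had a mean of 555696 RPM). A-only ends were carried by 6.90% and 5.45% of let-7 3p reads, so the excess on this arm was of T. Whether the T was added to the hairpin before Dicer cleavage or to the cut strand was not tested.

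With these ends counted, the 3p arm held 2.62% of let-7 reads in WT and 2.46% in KO. The 3p strand of let-7d remained lower in KO (378 and 293 reads, 0.764, 0.653 to 0.892), and that of let-7e as well (79 and 51 reads, 0.636, 0.438 to 0.916). The 3p strand of let-7b, of which exact matches had found 12 and 8 reads, had 110 and 120 reads and a ratio of 1.07 (0.823 to 1.40). For the strand common to let-7a-1 and let-7c-2 the ratio was 1.06 (0.771 to 1.46), and for let-7f-2 it was 0.629 (0.356 to 1.09), neither of which differed from 1 beyond counting error.

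The 5′ end of the 5p strand, which sets the seed, was nearly invariant. Of the 5p reads, 99.8% in WT and 99.7% in KO began at the annotated base. The most frequent other start lay 1 base upstream, with 42 reads in WT and 41 in KO. The lowest share at the annotated base among the 8 RNAs was 98.8% in WT (let-7g) and 98.9% in KO (let-7g). The seed of the let-7 reads was therefore the annotated one in both genotypes.

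At the 3′ end the 5p reads varied more. A length of 22 nt was found in 81.4% of 5p reads in WT and 81.7% in KO, 21 nt in 9.87% and 9.66%, and 23 nt in 3.78% and 3.70%. In other hairpins the reads of 23 nt were more frequent, 15.8% and 16.8%. The values of other hairpins are pooled over reads, and Mir10b alone had a mean of 555696 RPM, so they rest largely on it. The largest separate class of short 5p reads belonged to let-7i. Its 18-nt form had 335 reads in WT and 333 in KO, 8.83% (7.96 to 9.77) and 9.62% (8.68 to 10.6) of let-7i 5p reads.
let-7i 18-nt form: tgaggtagtagtttgtgc
In other hairpins 18-nt reads were 0.349% and 0.347%. Among hairpins with a Mir symbol and at least 1000 reads in the library, 93 in WT and 91 in KO, Mirlet7i had the second highest share of 18-nt reads in both, against medians of 0.159% and 0.188%. The 19-nt form of let-7i had only 4 reads in each library. The corresponding 18-nt forms of let-7g (43 and 37 reads) and let-7e (41 and 30) were less frequent, at 2.70 and 2.94 per 100 reads of the 22-nt form in WT, against 10.6 for let-7i. The KO/WT ratio of the 18-nt form was 0.979 (0.839 to 1.14), that of the 22-nt form of let-7i 0.898 (0.854 to 0.945), and their intervals overlapped.

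**Figure D4:**
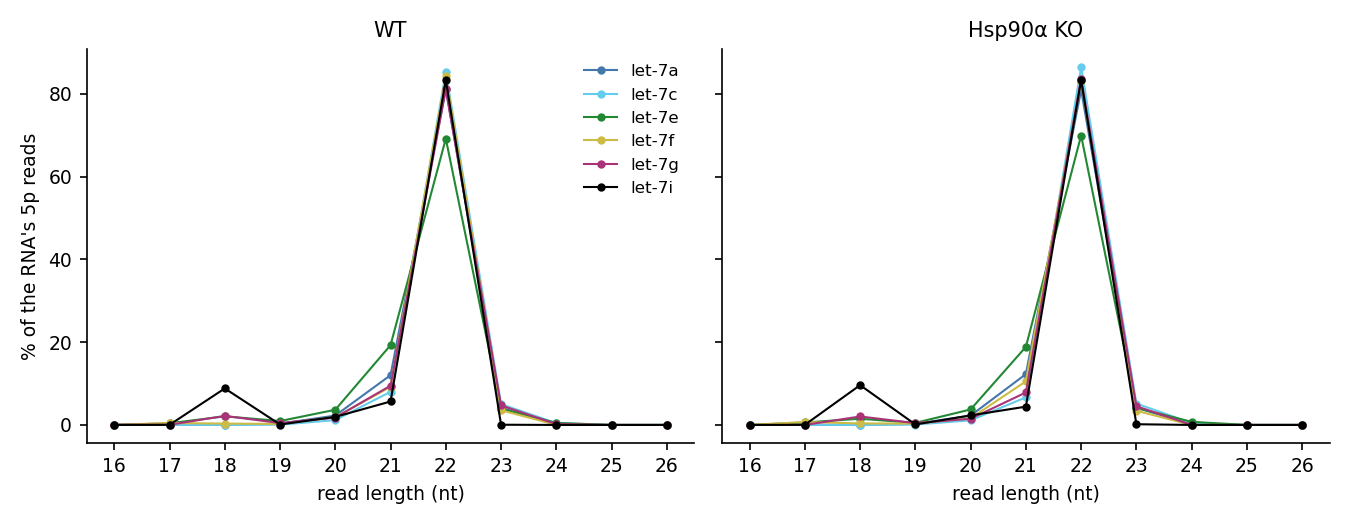
Length in nt of the 5p reads of let-7a, let-7c, let-7e, let-7f, let-7g and let-7i, as a percentage of the 5p reads of each RNA, in the WT and the Hsp90α KO library. All peak at 22 nt in both libraries, and the additional point at 18 nt is let-7i, at 8.83% and 9.62%.

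The bases added to the 5p strand also differed among members. To see them, the 22-nt form was compared with 23-nt reads that continue it by any base. The base that follows in the hairpin is capitalized for 3 members.
Mirlet7i: tgaggtagtagtttgtgctgttGgtc
Mirlet7e: tgaggtaggaggttgtatagttGagg
Mirlet7g: tgaggtagtagtttgtacagttTgag
In let-7i the templated G was found in only 2 reads in WT and 4 in KO, whereas an untemplated A had 609 and 514 reads, 19.2 and 17.8 per 100 reads of the 22-nt form, and T had 186 and 188. In let-7e the templated G had 78 and 82 reads, T 196 and 201 and A 124 and 114. In let-7g the templated T, from which an added T cannot be told, had 82 and 68 reads and A 80 and 84. Over the 8 RNAs, an A at this base ranged in WT from 3.39 per 100 in let-7f to 19.2 in let-7i. In let-7f the base is G in Mirlet7f-1 and T in Mirlet7f-2. The T had 213 and 168 reads and the G 5 and 9, but an added T on an RNA from Mirlet7f-1 gives the same sequence, and the reads of the 2 hairpins cannot be divided by this base.

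Summed over both arms, reads with 1 to 3 untemplated bases at the 3′ end made up 9.71% (9.37 to 10.1) of let-7 reads in WT and 9.74% (9.38 to 10.1) in KO, with no difference beyond counting error. Other hairpins, pooled over reads and thus largely Mir10b, had 11.99% and 11.88%. These sums weigh the arms differently, since let-7 had few 3p reads. Within each arm the share with untemplated ends was higher in let-7 than in other hairpins with a Mir symbol, in both libraries. In WT, 25028 of 27489 let-7 5p reads had no such end, against 2029390 of 2185072 in the others. On the 3p arm it was 460 of 739 against 445962 of 625623. A-only ends were the most frequent kind in let-7, 5.98% and 5.89%, followed by T-only ends, 2.43% and 2.68%. By RNA, the share with any untemplated end in WT ran from 4.24% in let-7f to 34.9% in let-7b, with 20.2% in let-7e and 19.3% in let-7i. In KO the same 3 RNAs were the highest, let-7b at 39.7%, let-7e at 18.9% and let-7i at 18.5%. These shares are not like for like. On the 5p strand, a T added at base 23 counts as untemplated only in let-7e and let-7i. Every other RNA has a hairpin with T there. The let-7b share also includes its 3p strand, with 110 of 636 reads in WT, of which only 12 had no untemplated end.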

How the data were processed

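Per the labels and the study's methods, total RNA of 20 pooled testes per genotype was made into TruSeq small RNA libraries and sequenced on a MiSeq. The authors removed the adaptor and deposited, for every distinct sequence over 10 bases, its raw count, neither mapped nor normalized; the submitters' processing notes name mm9, which was not used here. Reads of at least 16 nt were matched exactly to the 2202 miRNA transcripts of GENCODE M21 (GRCm38), and counts were divided by hairpin-matching reads, because the study normalizes to miRNA. An untemplated end was 1 to 3 bases after at least 18 templated nt. Ratios carry Clopper-Pearson, shares Wilson and quotients Wald 95% intervals, all for counting error. With 1 library per genotype no test across replicates was possible and no p-value is given. The members and lists were chosen with earlier results of these data known. The genes named are the members, other hairpins with the let-7 name or seed, their cluster neighbours, cell type markers and the 5 hairpins with the closest ratio. The scripts were tested on simulated data. Python 3.11.15, numpy 2.4.6, scipy 1.17.1 and matplotlib 3.10.9 were used. Alternatives covered the normalizing total, read length, mismatches, single reads, distinct sequences, shared reads and thresholds.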

Additional observations from a re-analysis of the deposited data

How the results depend on the processing

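With 1 library per genotype no replicate could be left out. No paired analysis was possible because each genotype has 1 library. The KO/WT ratio of the family was below 1, with an interval below 1, under 8 alternatives (lowest 0.872 without Mir10b in the total; counting untemplated ends, 0.885, was chosen after seeing the data). It was above 1 when scaled to all reads of the library (1.03) and by counting distinct sequences (1.13, 0.865 to 1.48), and the number of mature RNAs with an interval below 1, 7 as reported, was 0 under both. Scaled to all reads, the ratios above 1 were 1.09 for let-7a, 1.003 for let-7c (0.964 to 1.04), 1.03 for let-7d, 1.12 for let-7e, 1.05 for let-7g and 1.05 for let-7i. By distinct sequences they were 1.30 for let-7a, 1.33 for let-7b, 1.25 for let-7c and 1.40 for let-7i. In WT and KO, the 3p share was 23.9% and 20.5% by distinct sequences, 2.58% and 2.40% with up to 1 mismatch, and 2.62% and 2.46% with untemplated ends counted, the last chosen after seeing the data. Untemplated ends of A only or T only made up 8.52% and 8.67%, and the annotated 5′ end 99.7% of WT reads of 20 to 23 nt. The number of hairpins past 1.5-fold was 55 of 178 with at least 1000 reads and 7 of 266 among Mir symbols, the latter chosen after seeing the data. By construction the library total includes the reads outside hairpins. The cause of the other changes was not tested.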

Other observations

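LIN28 binds let-7 precursors through the loop, at a GGAG motif in many of them. The letters GGAG were found between the 2 arms in 8 of the 10 members, all except Mirlet7b and Mirlet7c-2. Over the whole hairpin, the motif occurred in 8 of the 10 members and in 37.2% of all 2202 hairpins, searched on the sense strand only. A match is a description of the sequence and not a binding site.

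The 5 hairpins of at least 1000 reads with a KO/WT ratio closest to that of the let-7 family, over the 2 libraries, were Mir107 (0.885), Mir145a (0.882), Mir486 (0.877), Mir3107 (0.875) and Mir6240 (0.899). Mir145a is one of the mesenchymal markers and Mir486 one of the blood markers, and 6974 of its 7082 reads in WT also fitted Mir3107, so that these hairpins are not separate values. In let-7b, the T at base 23 had 63 reads in WT and 33 in KO, 22.6 and 13.1 per 100 reads of its 22-nt form. The hairpin has T there, so that an added T cannot be told from a templated one. All 23-nt reads made up 15.4% (12.3 to 19.3) of let-7b 5p reads in WT and 9.82% (7.08 to 13.5) in KO, with overlapping intervals.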
